A study of Mus musculus with 24 samples.

Results

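The interferon-induced genes described here are 39 mouse genes, chosen by name, and every one of them was found among the 18795 genes of the deposited table. The names were put together with earlier results of these libraries known, and which comparison led to the choice is not recorded. For this reason every fold change and adjusted p below is a description of the members and is not offered as evidence for the list. The members form 9 groups by role: 4 interferon-inducible GTPases, 4 Ifit genes, 3 genes of the ISG15 pathway, 5 genes of the oligoadenylate synthetase (OAS) family, 6 Mx and other antiviral effectors, 3 transcription factors, 6 nucleic acid sensors and their relatives with the kinase Eif2ak2, 3 genes of the Parp9 and Dtx3l group, and 5 other induced genes.

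Interferons are secreted proteins that cells release on sensing viral or bacterial nucleic acids. Type I interferons act through a complex with STAT2 and IRF9 that binds the interferon-stimulated response element, whereas interferon gamma acts mainly through the gamma-activated sequence. Most of the genes induced in this way encode proteins that block virus replication or the growth of intracellular pathogens, and guanylate-binding proteins and immunity-related GTPases are known for their strong induction by interferon gamma.

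The libraries came from whole soleus (SOL, a slow muscle) and whole gastrocnemius (GAS, a fast muscle) of male C57BL/6 mice. Young control (YC) and young exercise (YE) mice were 9 weeks old, and old control (OC) and old exercise (OE) mice were 84 weeks old. The exercised mice ran on a treadmill for 4 weeks and the controls stayed sedentary. Each of the 8 combinations of muscle and group held 3 libraries, 24 in all, numbered as in the labels (1, 2 and 3 for YC and OE, 1, 2 and 4 for YE, 3, 4 and 5 for OC), with no statement of which number is which mouse.

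Values are fragments scaled to transcript length and to all mapped fragments (FPKM), and tests used log2(FPKM + 1) after quantile normalization. The sequencing depth in reads is unknown, and comparing the low genes between libraries gave a relative depth of 0.901 to 1.08 in SOL and 0.901 to 1.37 in GAS. Fast and slow fiber genes separated the muscles as labelled: the 6 slow genes summed to between 13110 and 20010 FPKM in SOL and 18.5 and 1646 FPKM in GAS. RNA of the whole muscle was measured, so fewer cells of a type and less RNA per cell cannot be told apart. The YE libraries numbered 1 stood apart in both muscles for the members, as described below, and the comparisons that include them are given with and without them.

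Many members lie side by side in the genome (GRCm38.p6, RefSeq). The 4 Ifit genes are within chr19:34550550-34650009, Oas1a, Oas2 and Oas3 within chr5:120730333-120907544, Oasl1 and Oasl2 within chr5:114896926-114937911, Gbp3 and Gbp7 within chr3:142530336-142573213, Rsad2 and Cmpk2 within chr12:26442743-26479837, and Mx1 and Mx2 within chr16:97447035-97560901. Promoters from 250 bases before to 50 bases after the RefSeq start were matched for 29 of the 39 members and searched on both strands for the core of the interferon-stimulated response element, written GAAA, any 2 bases, GAAA. It was found in 18 of the 29 (62.1%) and in 1079 of all 27025 genes with a promoter (3.99%). The gamma-activated sequence (TTC, any 3 bases, GAA) was found in 7 of the 29 (24.1%) and in 9.55% of all genes. A match is a description of the letters and not a shown binding site. The 200 bases before a start in the RefSeq promoter table are printed for the 3 GTPase genes with the largest log2 differences in the YE libraries numbered 1, described below, and for Ifit3b, which differed between the muscles, all on the plus strand of GRCm38.p6 and from RefSeq, with the response element in capitals (TTTC, any 2 bases, TTTC is the same element read on the other strand).
Gbp3, chr3:142559844-142560043: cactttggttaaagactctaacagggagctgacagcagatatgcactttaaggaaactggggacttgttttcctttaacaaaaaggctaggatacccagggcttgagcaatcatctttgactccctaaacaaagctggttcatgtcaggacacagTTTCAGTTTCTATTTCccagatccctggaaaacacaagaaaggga
Igtp, chr11:58199356-58199555: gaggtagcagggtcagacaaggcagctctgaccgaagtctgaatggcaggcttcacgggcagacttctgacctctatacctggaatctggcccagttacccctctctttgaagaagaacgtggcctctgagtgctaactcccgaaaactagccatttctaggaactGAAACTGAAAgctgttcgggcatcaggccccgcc
Gbp7, chr3:142530136-142530335: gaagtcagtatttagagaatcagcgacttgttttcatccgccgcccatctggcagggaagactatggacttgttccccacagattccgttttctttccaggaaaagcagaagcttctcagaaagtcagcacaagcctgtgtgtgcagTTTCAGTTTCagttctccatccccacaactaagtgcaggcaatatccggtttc
Ifit3b, chr19:34607757-34607956: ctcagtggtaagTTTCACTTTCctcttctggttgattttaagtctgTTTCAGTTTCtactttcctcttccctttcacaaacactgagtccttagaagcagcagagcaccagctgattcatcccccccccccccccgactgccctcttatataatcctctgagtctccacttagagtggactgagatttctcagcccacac
Counted from the start, the elements lay at positions -45 and -39 in Gbp3, where they overlap, at -53 in Gbp7, at -34 in Igtp and at -188 and -154 in Ifit3b.

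Most members were expressed at low levels in both muscles. In SOL, Ifi27, a small mitochondrial membrane protein, had the highest median of the 12 libraries at 26.3 FPKM, followed by Irgm1, a GTPase of autophagy and pathogen defense, at 10.3 FPKM, Ifi35 at 7.21 FPKM and Bst2, the membrane tether that retains budding viruses, at 6.22 FPKM. In GAS the order was Ifi27 at 23.9, Bst2 at 7.97, Ifi35 at 6.46 and Irgm1 at 6.13 FPKM. The ranges over 12 libraries of Ifi35 (4.86 to 7.78 FPKM), Bst2 (5.09 to 16.9 FPKM) and Irgm1 (4.71 to 12.2 FPKM) in GAS overlapped, so these neighbors in the order were not separated. At the other end, 8 members stayed below 1 FPKM in all 24 libraries, among them the OAS genes Oas1a, Oas3 and Oasl1 and the GTPases Mx1 and Mx2, and 29 of 39 passed a filter of 1 FPKM in at least 3 libraries, as did 11637 of all genes. Mx1 did not exceed 0.247 FPKM in any library; many inbred laboratory strains carry a nonfunctional Mx1.

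The YE library numbered 1 held the highest value of nearly every member in both muscles. In SOL YE 1, 38 of 39 members (97.4%) were above all other 11 SOL libraries, against 11.4% of all genes, and the exception was Rsad2, the antiviral radical SAM enzyme viperin, at 3.37 FPKM in SOL YE 1 and 3.69 FPKM in SOL OE 2. In GAS YE 1, 31 of 39 members (79.5%) were above all other 11 GAS libraries, against 9.31% of all genes. SOL OE 2 was above the rest in Rsad2 alone (5.63% of all genes), and the other 10 SOL libraries in none. In GAS the next libraries were OE 2, above the rest in 6 of 39 members (15.4%, against 7.24% of all genes), and OC 4, above the rest in 2 (8.67% of all genes).

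The mean of the 39 members showed the same libraries. On the log2(FPKM + 1) scale the mean was 1.95 in SOL YE 1 and between 1.17 and 1.35 in the other 11 SOL libraries. It was 1.86 in GAS YE 1, 1.57 in GAS OE 2 and between 1.12 and 1.39 in the other 10 GAS libraries. Within the YE group the other 2 libraries were at 1.29 and 1.23 in SOL and at 1.33 and 1.29 in GAS, inside the range of the control libraries of their muscle.

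**Figure D1:**
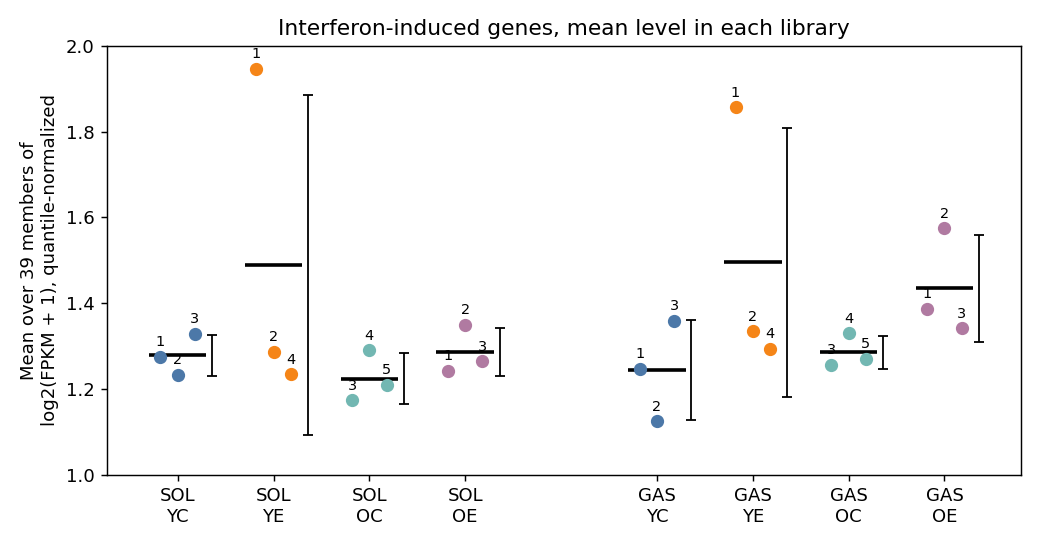
Mean of log2(FPKM + 1) over the 39 members (y axis, which does not start at 0) in each of the 24 libraries, by muscle and group (x axis); points are libraries with their label number, horizontal lines the means of 3 libraries and bars 1 SD. The YE libraries numbered 1 are at 1.95 in SOL and 1.86 in GAS, above all the others, and GAS OE 2 is next at 1.57.

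The GTPases had the highest median ratio of the 9 groups. As a ratio to the median of the other 11 libraries of the muscle, taken where that median was at least 0.1 FPKM (37 members), the median over members was 2.23 in SOL YE 1 and 2.08 in GAS YE 1, whereas the median of the 4 GTPases was 5.84 in SOL and 4.29 in GAS. Irgm1 was the lowest of the 4, at 2.06 in SOL and 2.05 in GAS, below the medians over members. Igtp, also called Irgm3, was at 4.00, 3.31 and 4.19 FPKM in SOL YC, 22.6, 3.94 and 3.50 FPKM in SOL YE, 3.45, 3.55 and 4.25 FPKM in SOL OC and 3.14, 4.58 and 4.67 FPKM in SOL OE. In GAS, Igtp was at 17.4 FPKM in YE 1 and between 4.43 and 7.28 FPKM in the other 11 libraries. A single library of each muscle was high, and the other 2 YE libraries overlapped the controls.

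Gbp3, a guanylate-binding protein, followed the same pattern. It was at 2.47, 1.71 and 3.34 FPKM in SOL YC and at 16.7, 2.96 and 2.81 FPKM in SOL YE, and at 1.42, 0.750 and 2.25 FPKM in GAS YC and at 9.97, 2.15 and 1.70 FPKM in GAS YE. Gbp7, its neighbor on the chromosome, was at 2.105, 1.88 and 2.52 FPKM in SOL YC and at 11.2, 2.46 and 1.69 FPKM in SOL YE, and reached 6.90 FPKM in GAS YE 1 against 2.15 and 1.73 FPKM in the other GAS YE libraries. Zbp1, a sensor of Z-form nucleic acids that can trigger cell death, had the highest ratio of all members in SOL. It was at 2.02 FPKM in SOL YE 1 and at most 0.360 FPKM in the other SOL libraries, a ratio of 10.7 to their median, and at 1.80 FPKM in GAS YE 1 and at most 0.916 FPKM in the other GAS libraries.

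The other groups of members had smaller median ratios in these 2 libraries. The median ratio was 2.39 for the Ifit genes, 2.55 for the ISG15 pathway, 2.29 for the OAS family, 2.54 for the transcription factors, 1.96 for Parp14, Parp9 and Dtx3l, 1.81 for the sensors and Eif2ak2 and 1.71 for Mx and other effectors in SOL YE 1. In GAS YE 1 the same groups were at 1.96, 2.12, 2.25, 2.17, 1.46, 1.74 and 2.08. The 5 other induced genes were at 2.29 in SOL YE 1 and 1.77 in GAS YE 1. Members whose promoter held the response element had a median ratio of 2.25 in SOL YE 1 (17 members with a ratio) and members without it 2.29 (11 members), and in GAS YE 1 the values were 2.09 and 2.08. The difference of each member from the median of the other 11 libraries was similar in both muscles, with Pearson's r of 0.91 and Spearman's rho of 0.81 over the 39 members, which are not independent and share the 2 libraries.

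**Figure D2:**
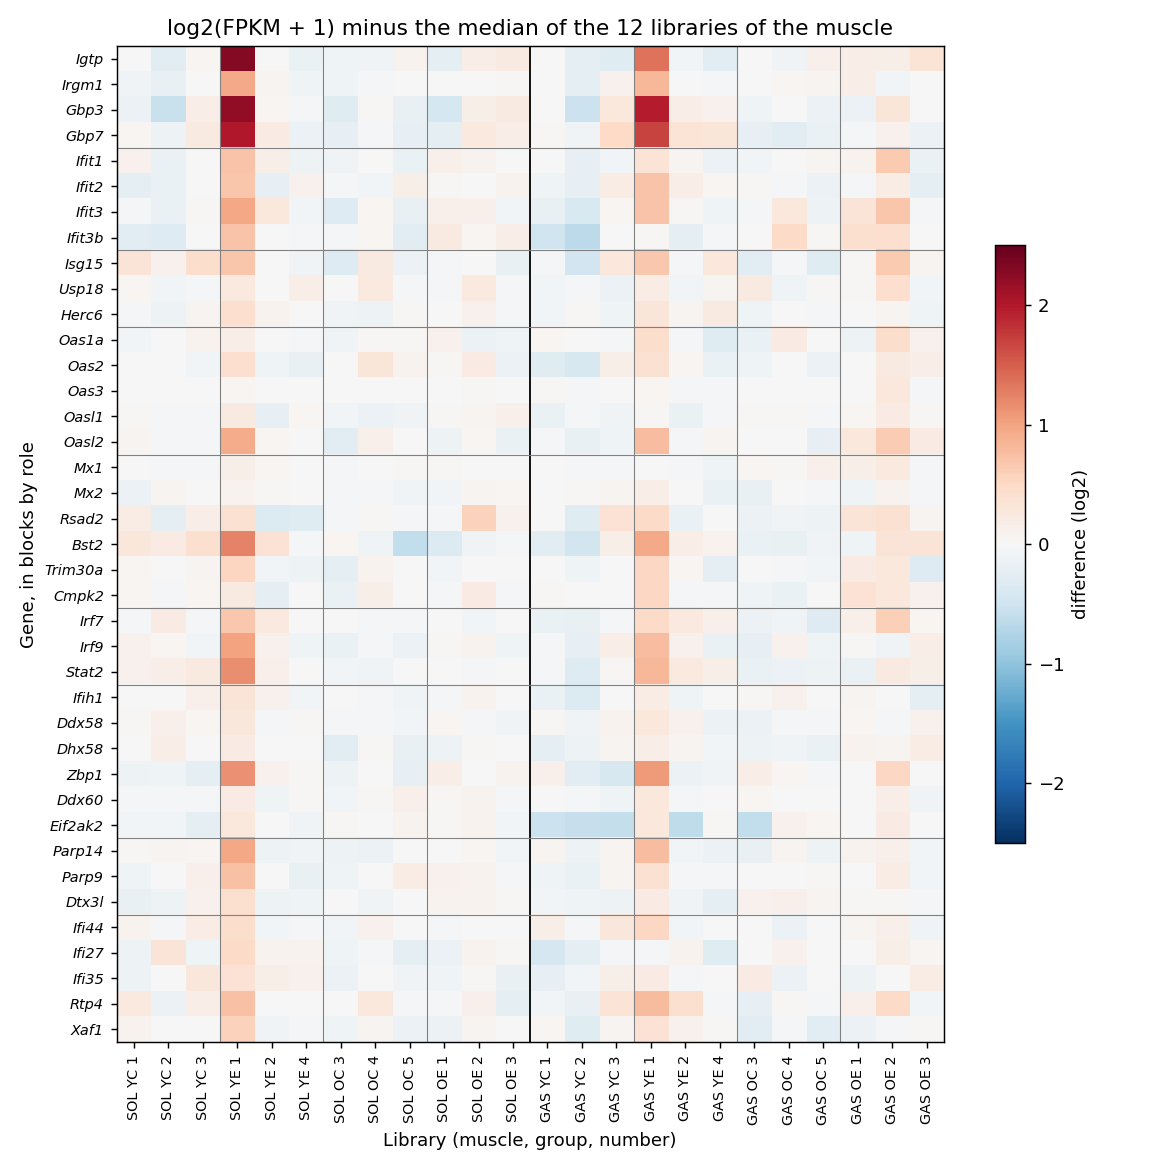
Difference of log2(FPKM + 1) from the median of the 12 libraries of the muscle (color, red above and blue below) for the 39 members (rows, in blocks by role) in the 24 libraries (columns, SOL left and GAS right). The columns SOL YE 1 and GAS YE 1 are red in nearly every row, most strongly for Igtp, Gbp3 and Gbp7, and GAS OE 2 is weakly red in the Ifit, OAS and ISG15 rows.

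**Figure D3:**
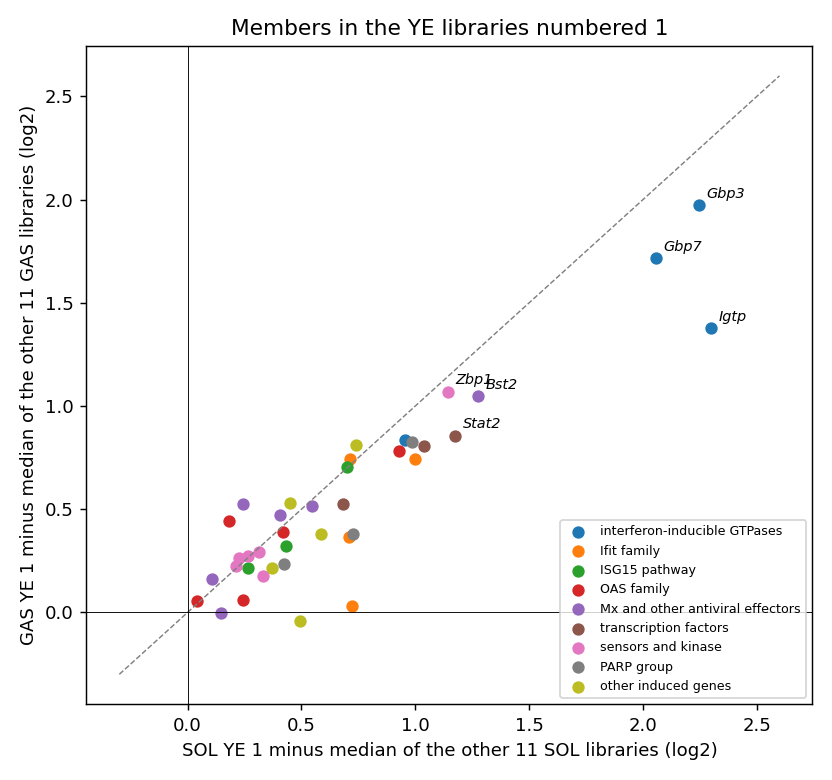
Difference of each member from the median of the other 11 libraries of the muscle in SOL YE 1 (x axis) and GAS YE 1 (y axis), both in log2(FPKM + 1), colored by role; the dashed line marks equal differences. Gbp3, Igtp and Gbp7 lie farthest from 0 in both muscles.

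GAS OE 2 differed from YE 1 in which members were high. The OAS family had a median ratio of 2.11 to the other 11 libraries in GAS OE 2, the Ifit genes 1.73 and the GTPases 1.20, whereas the GTPases led in GAS YE 1. Ifit1, which binds RNA lacking host cap methylation, was at 1.72 FPKM in GAS OE 2 and at 1.301 FPKM in GAS YE 1, and Irf7, the factor that amplifies type I interferon production, was at 2.97 and 2.81 FPKM. Igtp was at 6.61 FPKM in GAS OE 2, below the 6.80 and 7.28 FPKM of the other GAS OE libraries and within the 5.76 to 6.95 FPKM of GAS OC.

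Genes of the pathway outside the list were read in the same libraries. Of all genes, 11.4% were above all other 11 libraries in SOL YE 1 and 9.31% in GAS YE 1. Of 51 other interferon-induced genes in the table, 39 were above in SOL YE 1 and 29 in GAS YE 1. Their summed level was 502.9 FPKM in SOL YE 1 (242.8 to 305.1 FPKM in the others) and 364.7 FPKM in GAS YE 1 (176.1 to 279.0 FPKM). Of 16 genes of antigen presentation by MHC class I, 15 and 10 were above the rest. Of 9 receptors and receptor kinases, 2 and 2 were, and the summed level of 98.2 FPKM in SOL YE 1 lay inside the 78.3 to 101 FPKM of the others. Of 14 nucleic acid sensors and adaptors in the table, 3 in SOL YE 1 and 4 in GAS YE 1 were above the rest. Their sums, 105.3 and 54.37 FPKM, lay inside the 94.11 to 112.1 FPKM and 43.67 to 57.46 FPKM of the others. Of 12 signal transducers, factors and brakes, 5 and 4 were above the rest. Among these 12, Irf1, a transcription factor of the interferon gamma response, was at 17.4 FPKM in SOL YE 1 against at most 7.48 FPKM in the other SOL libraries. In GAS YE 1 Irf1 was at 13.9 FPKM against at most 5.92 FPKM in the other GAS libraries. Of the interferons themselves only Ifnb1 was in the table, at 0 in both YE 1 libraries and at most 0.0565 FPKM elsewhere, and the other 9 were not analysed here.

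Markers of other cell types were read beside these values. Of all genes, 11.4% in SOL YE 1, 9.31% in GAS YE 1 and 7.24% in GAS OE 2 were above the other 11 libraries of their muscle. The 10 macrophage markers summed to 102 FPKM in SOL YE 1 (43.2 to 98.4 FPKM in the others, 6 of 10 above all of them), to 124 FPKM in GAS YE 1 (66.1 to 151.5 FPKM, 1 of 10) and to 151.5 FPKM in GAS OE 2 (66.1 to 134 FPKM, 7 of 10). The 7 genes of MHC class II presentation were all above the rest in SOL YE 1, at a sum of 99.7 FPKM against 21.7 to 74.7 FPKM. In GAS YE 1, 3 of 7 were above the rest and the sum of 136 FPKM lay inside the 53.2 to 160.5 FPKM of the others, and in GAS OE 2, 4 of 7 were above the rest and the sum was the highest at 160.5 FPKM. The 9 T and NK cell markers in the table summed to 0.0612 FPKM in SOL YE 1 (0.0148 to 2.51 FPKM in the others) and 0.255 FPKM in GAS YE 1 (0.00865 to 0.464 FPKM). Of these 9, 0 were above the rest in SOL YE 1 and 3 in GAS YE 1. The 6 adipocyte markers summed to 903 FPKM in SOL YE 1 (286.5 to 886 FPKM, 3 of 6 above the rest). In GAS YE 1 they summed to 334.2 FPKM, inside the 191.0 to 799.8 FPKM of the others (0 of 6). The 5 fibroblast markers summed to 549.5 FPKM in GAS YE 1 (286.8 to 436 FPKM, 4 of 5 above the rest). In SOL YE 1 they summed to 445.6 FPKM, inside the 226.2 to 508.6 FPKM of the others (0 of 5). The part of these cells in the members' values was not tested. The relative depth of SOL YE 1, 0.901, was the lowest of the SOL libraries (0.927 to 1.08 in the others). That of GAS YE 1, 1.05, lay inside the range of the other GAS libraries.

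The 10 genes outside the list whose pattern was most like the members' mean included Ifi47, Gbp2, Gbp5, Iigp1, Irgm2, Gm12250, Cd274, Tgtp2 and Tgtp1. The Pearson correlation of the 10 genes with that mean was between 0.92 and 0.94 over the 24 libraries after each muscle's mean was subtracted, and between 0.55 and 0.64 over the 22 libraries without YE 1. Tgtp2, an immunity-related GTPase, was at 19.8 FPKM in SOL YE 1 against 1.05 to 3.88 FPKM in the other SOL libraries, and Gbp2 at 27.3 against 3.37 to 5.36 FPKM. Cd274, which encodes the checkpoint ligand PD-L1, was at 13.0 against 1.55 to 3.41 FPKM. In each of the 10 genes both YE 1 libraries were above the other 11 of their muscle. The choice of these genes by correlation with the members' mean, which was highest in YE 1, favors such values.

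To describe the effect of exercise in young mice, SOL YE was compared with SOL YC. By limma with Benjamini-Hochberg adjustment no member passed an adjusted p of 0.05, as was the case for all 18795 genes (0.0% called), and Ifit3b, Mx1 and Zbp1 were higher at an unadjusted p under 0.05 (3 members, against 4.31% of all genes). The log2 fold change was above 0 in 36 of 39 members (47.4% of all genes), with a median of 0.16 against 0.00 over all genes. The members with the largest changes were Gbp3 (0.93 ± 0.53 SE, adjusted p = 0.677), Igtp (0.79 ± 0.54, adjusted p = 0.722) and Gbp7 (0.64 ± 0.46, adjusted p = 0.733), on the log2(FPKM + 1) scale, which understates the change of low genes. Without SOL YE 1 the median was -0.01 and 17 of 39 members were above 0, with Gbp3 at 0.19, Igtp at 0.00 and Gbp7 at -0.02. Zbp1 was the only member with all 3 SOL YE libraries (2.02, 0.295 and 0.216 FPKM) above all 3 SOL YC libraries (0.0867, 0.117 and 0 FPKM), which held on the normalized scale for 5.26% of all genes, and its log2 fold change was 0.58 ± 0.24 (adjusted p = 0.528) and 0.23 without SOL YE 1 (adjusted p = 0.384).

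GAS YE was compared with GAS YC in the same way. No member passed an adjusted p of 0.05 (0.016% of all genes did), 4 were higher at an unadjusted p under 0.05 (1.77% of all genes), and 36 of 39 had a log2 fold change above 0 (43.1% of all genes) with a median of 0.19. Those 4 were Irf7, Stat2, Bst2 and Herc6, the last the mouse ligase for ISG15. The largest changes were those of Gbp3 (0.84 ± 0.45 SE, adjusted p = 1.0), Gbp7 (0.63 ± 0.33) and Bst2 (0.60 ± 0.24), and Bst2 was at 5.67, 5.09 and 9.17 FPKM in GAS YC and 16.9, 9.45 and 8.16 FPKM in GAS YE, which overlap. Without GAS YE 1 the median was 0.07, 26 of 39 members were above 0, and these 3 genes were at 0.23, 0.18 and 0.33.

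Irf7, Stat2 and Herc6 were the members whose GAS YE libraries were all above the GAS YC libraries (3.11% of all genes were). Irf7 was at 1.16, 1.19 and 1.63 FPKM in GAS YC and 2.81, 2.30 and 1.72 FPKM in GAS YE. Stat2, the partner of IRF9 in type I signaling, was at 1.40, 1.02 and 1.80 FPKM in GAS YC and 3.93, 2.36 and 1.80 FPKM in GAS YE, so the lowest YE library and the highest YC library were next to each other.

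**Figure D4:**
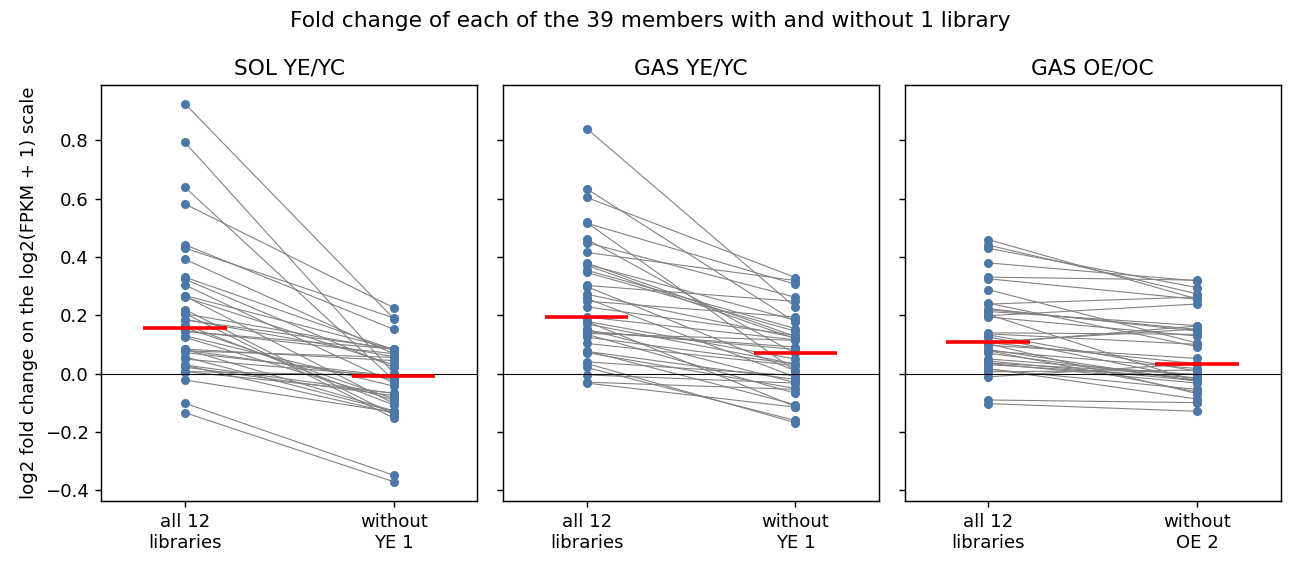
log2 fold change on the log2(FPKM + 1) scale (y axis) of each of the 39 members with all 12 libraries of the muscle and without 1 library, for SOL YE/YC, GAS YE/YC and GAS OE/OC; points joined by a line are 1 member and red lines mark the medians. The medians go from 0.16 to -0.01, from 0.19 to 0.07 and from 0.11 to 0.03.

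SOL OE was compared with SOL OC for old mice, and the members' median lay between those of SOL YE/YC with and without SOL YE 1. In SOL OE/OC no member passed an adjusted p of 0.05 (0.00532% of all genes) or an unadjusted p of 0.05 (6.09% of all genes), and 31 of 39 were above 0 (47.6% of all genes) with a median of 0.05. The largest changes were Ifit3b (0.24 ± 0.19 SE), Rsad2 (0.24 ± 0.22) and Ifit3 (0.22 ± 0.22), with adjusted p between 0.893 and 0.930. Ifit3 was at 1.52, 2.36 and 1.98 FPKM in SOL OC and 2.66, 2.70 and 2.14 FPKM in SOL OE, which overlap. On the normalized scale Oasl1, Dtx3l and Irgm1 had all 3 OE libraries above all 3 OC libraries (5.16% of all genes), and Dtx3l and Irgm1 overlapped in FPKM.

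In GAS OE/OC the members were higher in 1 library more than in the others. No member passed an adjusted p of 0.05 (0.016% of all genes), 3 were higher at an unadjusted p under 0.05 (Irf7, Dhx58 and Cmpk2, against 2.96% of all genes), and 36 of 39 were above 0 (49.8% of all genes) with a median of 0.11. Isg15, the ubiquitin-like modifier, was at 0.710, 1.16 and 0.817 FPKM in GAS OC and 1.17, 2.28 and 1.03 FPKM in GAS OE. Irf7 was at 1.33, 1.64 and 1.27 FPKM in GAS OC and 1.93, 2.97 and 1.54 FPKM in GAS OE, and Oasl2, an OAS-like protein, was at 0.731, 0.917 and 0.637 FPKM and 1.15, 1.73 and 0.894 FPKM. OE 2 was the highest library for each of these 3 genes, and OE 3 was below the highest OC library in FPKM for each.

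The log2 fold changes in GAS OE/OC were 0.46 ± 0.25 SE for Isg15, 0.44 ± 0.15 for Irf7 and 0.43 ± 0.20 for Oasl2, each with an adjusted p of 0.939. Without GAS OE 2 they were 0.26, 0.27 and 0.30, the median of the members was 0.03, and 24 of 39 were above 0. On the normalized scale 8 members, Isg15, Irf7, Oasl2, Rsad2, Dhx58, Cmpk2, Igtp and Gbp7, had all 3 OE libraries above all 3 OC libraries (4.69% of all genes), and Dtx3l had all 3 below (2.67% of all genes). Of these 8, all but Dhx58 overlapped in FPKM.

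With both ages averaged, 38 of 39 members were above 0 in GAS (48.1% of all genes), with a median of 0.19, and 8 were higher at an unadjusted p under 0.05 (2.24% of all genes). The smallest p was that of Irf7 (0.43 ± 0.10 SE, adjusted p = 0.932). Without GAS YE 1 the median was 0.09 with 34 of 39 above 0, and without GAS OE 2 it was 0.17 with 35 of 39 above 0. In SOL the averaged median was 0.09 with 37 of 39 above 0 (49.2% of all genes), and 0.03 with 23 of 39 above 0 without SOL YE 1. The only member with an unadjusted p under 0.05 there (8.44% of all genes) was Ifit3b (0.33 ± 0.13 SE, adjusted p = 0.540). No member passed an adjusted p of 0.05 in either muscle (0.0266% of all genes in GAS and 0.00532% in SOL), and none did for the difference in the effect of exercise between old and young mice (0.00532% of all genes in GAS and 0.0% in SOL). In that difference no member had an unadjusted p under 0.05 (4.34% of all genes in GAS and 6.15% in SOL), with medians of -0.09 in GAS and -0.13 in SOL. Both medians turned without the YE library numbered 1, to 0.09 in GAS with Cmpk2 at an unadjusted p under 0.05 (1 member), and to 0.06 in SOL with Rsad2, Oasl1 and Parp14 (3 members), none of them at an adjusted p under 0.05.

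To describe aging, SOL OC was compared with SOL YC. No member passed an adjusted p of 0.05, whereas 4.36% of all genes did, and none had an unadjusted p under 0.05 (20.8% of all genes). The median of the members was -0.05 with 13 of 39 above 0 (48.8% of all genes). Bst2 was at 8.02, 7.60 and 8.63 FPKM in SOL YC and 6.25, 5.64 and 3.82 FPKM in SOL OC, which do not overlap (-0.52 ± 0.29 SE, adjusted p = 0.362). Isg15 was at 1.39, 1.17 and 1.62 FPKM and 0.396, 1.12 and 0.681 FPKM (-0.38 ± 0.21, adjusted p = 0.362).

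Stat2 was at 2.44, 2.82 and 2.75 FPKM in SOL YC and 1.85, 1.84 and 2.16 FPKM in SOL OC, with no overlap (-0.22 ± 0.25, adjusted p = 0.694). The spread behind this test was estimated over all 12 SOL libraries, and without YE 1 in that estimate the same difference had an adjusted p of 0.048. On the normalized scale, Eif2ak2 had every SOL OC library above every SOL YC library (12.9% of all genes), and 6 members had every SOL OC library below (10.1% of all genes), namely Stat2, Oasl1, Ifih1, Ddx58, Bst2 and Parp14. Eif2ak2 overlapped in FPKM. Ifih1 and Ddx58 encode the cytosolic RNA sensors MDA5 and RIG-I. Markers of immune cells also differed by age without overlap: the macrophage markers summed to 89.6 to 98.4 FPKM in SOL YC and 58.3 to 77.4 FPKM in SOL OC, and the MHC class II genes to 63.9 to 74.6 FPKM and 21.7 to 39.6 FPKM. Their part in the members' values was not tested.

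In GAS OC/YC no member passed an adjusted p of 0.05 (0.0426% of all genes), 1 had an unadjusted p under 0.05 (10.5% of all genes), and the median was 0.01 with 23 of 39 above 0 (42.7% of all genes). That member was Ifit3b, at 1.46, 1.29 and 2.90 FPKM in GAS YC and 2.73, 4.63 and 3.11 FPKM in GAS OC (0.55 ± 0.20 SE, adjusted p = 0.359). Ifit3b and Ifit3 are close copies, with transcripts of 2000 bases (Ifit3b) and 1745 bases (Ifit3). Of 2048 columns in their alignment 1663 were identical (81.2%), where columns that hold a gap count as different. The longest identical run was 329 bases, so how reads were divided between Ifit3b and Ifit3 is uncertain. Gbp7 was at 1.20, 1.06 and 2.36 FPKM in GAS YC and 1.02, 1.11 and 1.24 FPKM in GAS OC, which overlap in FPKM (-0.36 ± 0.33, adjusted p = 0.785). On the normalized scale Gbp7 had every OC library below every YC library (9.65% of all genes), and 6 members, Ifit3b, Oasl1, Mx1, Ifi27, Ifih1 and Dtx3l, had every OC library above (7.4% of all genes). Ifit3b and Ifih1 overlapped in FPKM. In GAS the macrophage markers were higher in OC, at 119 to 134 FPKM against 66.1 to 103 FPKM in YC, and so were the MHC class II genes, at 116 to 122 FPKM against 60.3 to 88.7 FPKM, and their part was not tested either.

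In the exercised mice, SOL OE/YE gave no member at an adjusted p of 0.05 (2.78% of all genes) and a median of -0.15 with 4 of 39 above 0 (48.5% of all genes). Irf7, Ifi35 and Bst2 were lower at an unadjusted p under 0.05 (18.3% of all genes in either direction), and Stat2 and Ifi35 had every OE library below every YE library (10.0% of all genes). Gbp3 (-0.77 ± 0.53 SE), Bst2 (-0.67 ± 0.29) and Igtp (-0.66 ± 0.54) had the largest differences, with adjusted p between 0.265 and 0.570. Without SOL YE 1 the median was 0.01, 20 of 39 were above 0, and Igtp was at 0.13. GAS OE/YE gave no member at an adjusted p of 0.05 (0.165% of all genes) and a median of -0.04 with 16 of 39 above 0 (46.9% of all genes). Oasl1 and Mx1 were higher and Herc6 and Gbp7 lower at an unadjusted p under 0.05 (10.7% of all genes), and Gbp7 had every OE library below every YE library (4.86% of all genes, -0.80 ± 0.33 SE, adjusted p = 0.444). Gbp3 (-0.70 ± 0.45) and Ifit3b (0.35 ± 0.20) followed, with adjusted p of 0.649 and 0.594. Without GAS YE 1 the median was 0.12, with 32 of 39 above 0. These comparisons share the YE libraries with YE/YC.

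With sedentary and exercised mice averaged, no member passed an adjusted p of 0.05 for age in SOL (12.3% of all genes) or in GAS (1.6%). In SOL 7 of 39 members were above 0 (50.5% of all genes) with a median of -0.12, and Bst2 (-0.60 ± 0.21 SE, adjusted p = 0.0953), Ifi35 and Dhx58 were lower at an unadjusted p under 0.05 (27.3% of all genes). Without SOL YE 1 the median was -0.01 with 16 of 39 above 0, and Stat2 was then lower at an adjusted p under 0.05. In GAS 22 of 39 were above 0 (45.9% of all genes) with a median of 0.01, and 5 members had an unadjusted p under 0.05 (15.1% of all genes), Ifit3b (0.45 ± 0.14, adjusted p = 0.163), Oasl1, Mx1 and Ifi27 higher and Gbp7 lower. Without GAS YE 1 the median in GAS was 0.07 with 29 of 39 above 0, and 8 members had an unadjusted p under 0.05, 7 of them higher.

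Of the pathway genes outside the list, none of the 110 tested passed an adjusted p of 0.05 in YE/YC or OE/OC of either muscle. Over all genes the shares were 0.0% and 0.00532% in SOL, and 0.016% in both comparisons of GAS. In SOL OC/YC 3 of the 110 did by limma, against 4.36% of all genes, and all 3 were lower. Irf2, a repressor among the interferon regulatory factors, was at -0.40 ± 0.08 SE (adjusted p = 0.0338). Tmem173, the DNA-sensing adaptor STING, was at -0.45 ± 0.09 (adjusted p = 0.0267). Ifitm2, a membrane protein that limits virus entry, was at -0.56 ± 0.10 (adjusted p = 0.0220).

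The difference between the muscles in the effect of exercise or of age was tested in 1 model over the 24 libraries. No member passed an adjusted p of 0.05 for YE/YC (0.0% of all genes), OE/OC (0.0266% of all genes) or OC/YC (0.239% of all genes). The only members with an unadjusted p under 0.05 were Ifi27 (-0.41 ± 0.19 SE, adjusted p = 0.515) and Ifih1 (-0.31 ± 0.14, adjusted p = 0.519) for OC/YC, against 9.4% of all genes, and there were none for YE/YC (3.54%) or OE/OC (3.41%). The difference in YE/YC moved with the YE libraries numbered 1. Its median was 0.00 with 18 of 39 members above 0, -0.24 with 2 above 0 and 3 at an unadjusted p under 0.05 (Stat2, Bst2 and Isg15) without SOL YE 1, 0.12 with 29 above 0 without GAS YE 1, and -0.06 with 11 above 0 without both.

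In the main fit the muscles themselves differed in the level of few members. SOL and GAS differed in 3 of 39 members in YC (38.3% of all genes called), 3 in YE (34.2%), 6 in OC (37.4%) and 9 in OE (38.7%) at an adjusted p under 0.05 by limma. In this fit that was a smaller share than over all genes in each group. The counts changed with the scaling, the replicate block and the libraries behind the estimate of spread, as given below. Usp18, the protease that removes ISG15 and dampens type I interferon signaling, was lower in SOL in each group, with log2 differences of -0.61 in YC, -0.61 in YE, -0.66 in OC and -0.75 in OE (each ± 0.12 SE, adjusted p = 0.000547, 0.000647, 0.000268 and 7.35e-05). It was at 0.841, 0.800 and 0.733 FPKM in SOL YC and 1.10, 1.21 and 1.26 FPKM in GAS YC, and at 0.709, 1.11 and 0.699 FPKM in SOL OE and 1.502, 2.20 and 1.13 FPKM in GAS OE. The SOL and GAS libraries of a group did not overlap for Usp18 in any of the 4 groups.

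Eif2ak2, the kinase PKR that halts translation on double-stranded RNA, was higher in SOL in YC (0.89 ± 0.19 SE, adjusted p = 0.000785), YE (0.63 ± 0.19) and OC (0.64 ± 0.19). It was at 1.85, 2.03 and 1.54 FPKM in SOL YC and 0.245, 0.223 and 0.273 FPKM in GAS YC, far apart. Its annotated span overlaps a transcribed pseudogene, Gm6548, and another gene, Gm26637, and how such reads were counted is not given in the sources used here. The same holds for Usp18 with Gm44148 and for Dtx3l with Parp9. Ifit2, an RNA-binding Ifit protein, was higher in SOL in OC and OE (0.51 ± 0.19 in both), and Dtx3l, a ubiquitin ligase and partner of Parp9, in YE (0.36 ± 0.12) and OE (0.33 ± 0.12). Dtx3l was at 4.42, 4.41 and 4.12 FPKM in SOL OE and 2.55, 2.51 and 2.11 FPKM in GAS OE. Ifit2 was at 2.06, 2.06 and 2.11 FPKM in SOL OE and 0.829, 1.11 and 0.528 FPKM in GAS OE.

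Ifit3b was lower in SOL in YC (-0.58 ± 0.20 SE), OC (-1.02 ± 0.20) and OE (-0.89 ± 0.20). In OE, Bst2 (-0.88 ± 0.27), Isg15 (-0.72 ± 0.23), Oasl2 (-0.57 ± 0.22), Irf7 (-0.42 ± 0.15) and Mx1 (-0.18 ± 0.05) were also lower in SOL, and in OC Oasl1 (-0.23 ± 0.08) and Mx1 (-0.15 ± 0.05). Isg15 was at 0.787, 0.890 and 0.600 FPKM in SOL OE and 1.17, 2.28 and 1.03 FPKM in GAS OE, with no overlap. Mx1 was near 0 and overlapped, at 0.0489, 0.0230 and 0.0378 FPKM in SOL OE and 0.162, 0.247 and 0.0227 FPKM in GAS OE. Irf7 and Oasl2 overlapped in FPKM in OE but not on the normalized scale. Oasl1 was at 0.0945, 0.0494 and 0.102 FPKM in SOL OC and 0.199, 0.266 and 0.219 FPKM in GAS OC. The counts rested on single libraries. In OE the count of 9 was 3 without GAS OE 2, 4 without SOL OE 1, 5 without SOL OE 2 and 4 without SOL OE 3, and in OC the count of 6 was 3 without SOL OC 4 and 3 without GAS OC 3. In YE the 3 members became 6 lower in SOL without SOL YE 1, and 5 higher and 1 lower without GAS YE 1.

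The balance of higher and lower members rested on the scaling of the muscles. GAS libraries had 31.7% to 38.3% of their FPKM in the 10 most abundant genes, and SOL libraries 16.1% to 19.4%. In YC the called members were 1 higher and 2 lower in SOL with quantile normalization over all libraries, 14 higher and 0 lower without it, and 11 higher and 1 lower with quantile normalization within each muscle (18.9% of all genes were called higher and 19.4% lower with the first). In the same order of scalings, YE had 2 higher and 1 lower, 7 and 1, and 9 and 1 (17.5% and 16.7% of all genes with the first). OC had 2 higher and 4 lower, 4 and 2, and 8 and 2 (19.6% and 17.8%). OE had 2 higher and 7 lower, 6 and 2, and 8 and 3 (19.6% and 19.1%). For the other scalings the share over all genes is not given here. In YC the median over all genes moved to 0.11 without quantile normalization and the median of the members to 0.31. Each member named in this comparison kept its direction under the 3 scalings, and Usp18 kept its call in YE, OC and OE under all 3 but not in YC without quantile normalization (adjusted p = 0.0803). Without quantile normalization the calls of Ifit3b in YC, Oasl1 and Mx1 in OC, and Bst2, Isg15, Irf7, Oasl2 and Mx1 in OE were also lost.

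**Figure D5:**
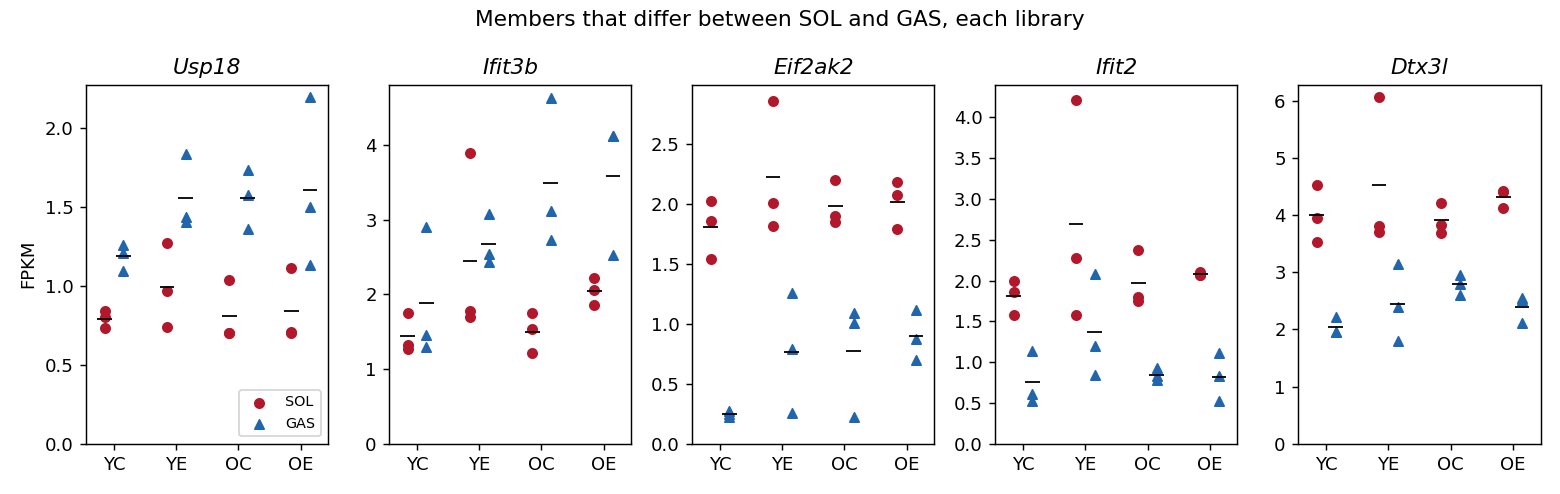
FPKM (y axis, from 0) of 5 members that differed between the muscles in at least 1 group, in each library by group (x axis); circles are SOL, triangles GAS, and lines the means of 3 libraries. Usp18 does not overlap between the muscles in any group, whereas Ifit3b overlaps in YE, and the GAS values of Eif2ak2 fall into a lower set of 0.223 to 0.273 FPKM and a higher set of 0.695 to 1.26 FPKM.

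The SOL and GAS libraries with the same group and number varied together for the members. Over the 11 such combinations other than YE 1, the members' mean had a Pearson's r of 0.67 and a Spearman's rho of 0.65 between the muscles, given as a description with no test. OE 2 was the highest of these 11 in both muscles, at 1.35 in SOL and 1.57 in GAS. Gene by gene, the median r over the members was 0.60 with YE 1 and 0.24 without it, and over all genes 0.16 and 0.15.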

How the data were processed

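RNA of whole soleus and gastrocnemius was sequenced in 24 libraries. The authors deposited 1 table of 18795 genes with FPKM and with log2(FPKM + 1) values quantile-normalized over all libraries; per the labels, HISAT2 2.1.0, StringTie 1.3.4d and the build mm10 are among the processing tools. The deposited log2 values were recomputed from the FPKM to within 5e-09. The authors' own columns of ratios (fold changes), p-values, test scores, means and standard deviations of their comparisons between the muscles were not used. Quantile normalization forces 1 distribution on both muscles, which bears on levels compared between them.

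Members and lists were chosen with earlier results of these data known. Symbols turned into dates by a spreadsheet (25) were restored by gene ID. The deposited log2 values were tested with limma 3.58.1 (intensity trend) in R 4.3.3, over the 12 libraries of a muscle or all 24, two-sided, with Benjamini-Hochberg adjustment over 18795 genes, a threshold of 0.05 and no replicate block; the study's t-test was an alternative. The labels do not say that replicates are separate mice (the methods give 3 mice a group), so p-values measure the spread between these libraries. Every library is given for members past the threshold, in groups that show the comparison, and for the 3 members with the largest change in each comparison within a muscle, or the members already given; up to 10 genes most correlated with the members' mean are named, except 1 that is not reported here. The models were tested on simulated data. Alternatives were a pseudocount of 0.1, a filter of 1 FPKM in 3 libraries, no or within-muscle quantile normalization, the replicate block, other library sets and leaving out each library. The block was the number within a muscle, and group and number together between the muscles.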

Additional observations from a re-analysis of the deposited data

How the results depend on the processing

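Within a muscle, no member passed the threshold under most alternatives. Exceptions were Stat2 in SOL OC/YC (1 member) when the YE libraries numbered 1 were left out of the estimate of spread, a choice made after the data were seen, and Bst2 with age averaged over treatments in SOL (1) under the filter on low FPKM. With an unadjusted p under 0.05 and a 1.5-fold change in place of the adjusted p, 1 member was called in each of 4 comparisons. These were SOL OE/YE (198 of all 18795 genes), SOL age averaged (191), GAS YE/YC (39) and GAS OE/YE (171). In SOL OE/GAS OE 4 members were called in place of 9 (3047 of all genes). Between the muscles, the counts in YC, YE, OC and OE were 3, 3, 6 and 9. Without quantile normalization YC had 14 and YE 8. With quantile normalization within a muscle, also chosen after the data were seen, YC had 12, YE 10 and OC 10. With the equal-variance t-test YE had 1 and OC 13. Without both YE libraries numbered 1, likewise, YE had 6, and without them in the estimate of spread YC had 8 and OC 12. The share over all genes under these alternatives is not given here, so these counts describe the members only.

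Leaving out 1 library at a time gave 2 to 4 members in YC, 2 to 6 in YE, 3 to 4 in OC and 3 to 9 in OE between the muscles, 0 to 1 for age averaged over treatments in SOL and in GAS, and 0 to 0 in the other comparisons. The change of Gbp7 in SOL YE/YC ranged from -0.021 to 1.06 and that of Igtp in SOL OE/YE from -1.10 to 0.13, with the sign turned without SOL YE 1 in both. Stat2 without SOL YE 1 and Bst2 without SOL YE 4 were the calls for age in SOL, and Mx1 without GAS OE 3 that in GAS.

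With group and number together as replicate block, the counts between the muscles were 8 in YC, 8 in YE, 13 in OC and 15 in OE. The share over all genes with this block is not given here. Within a muscle the block was the number alone, which ties libraries of different groups, and OC shares only number 3 with YC and with OE. No member was called with the number alone as block, and Ifit3 in SOL OE/OC was at -0.000555. The block turned the members' median in SOL OE/OC from 0.05 (31 of 39 above 0) to -0.05 (11 of 39), and in SOL OC/YC from -0.05 (13 of 39) to 0.03 (26 of 39). In GAS OE/OC it lowered the median from 0.11 to 0.02, in GAS OC/YC it raised it from 0.01 to 0.13, and for exercise with ages averaged in GAS it left 1 member in place of 8 at an unadjusted p under 0.05. In the main fits the numbers were not treated as pairs, and SOL and GAS libraries were taken as independent. Deviations of SOL and GAS libraries of the same number correlated between -0.03 and 0.34, over 0.1 in 6 of 12. In 7 of 12 the correlation was above those with the other GAS libraries of the group, in every young library and in OC 3. For the same number within a muscle the correlations were between -0.30 and 0.15, and 3 of 12 were above those with the other numbers. The cause of the shifts of the medians under the block was not tested. Depth in reads is unknown, so no counting error can be given for low members.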

Other observations

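Eif2ak2 had 2 sets of values in GAS that cut across the groups. It was at 0.223 to 0.273 FPKM in YC 1, YC 2, YC 3, YE 2 and OC 3 and at 0.695 to 1.26 FPKM in the other 7 GAS libraries, with none in between, while the 12 SOL libraries ranged from 1.54 to 2.86 FPKM. The 5 low libraries include all GAS YC libraries, and within GAS OC the values were 0.223 FPKM in OC 3, 1.09 FPKM in OC 4 and 1.00 FPKM in OC 5 (GAS OC/YC 0.41 ± 0.24 SE, limma adjusted p = 0.638).

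Ifit3b was at 0.545 to 1.01 times Ifit3 in the SOL libraries, and GAS libraries lay between 0.652 and 1.43.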
